A study of Mus musculus with 4 samples.

Results

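Isolated regions of accessible chromatin are described here in regulatory T cells of NOD mice. They were defined by position alone, as autosomal regions wider than 251 bp and narrower than 2000 bp, with more than 50000 bp to both the previous and the next region of the same chromosome. Of 84476 regions in the deposited lists, 812 (0.961%) met this definition, or 1.53% of the 53121 autosomal regions of that width range. The remaining 52309 regions of the width range served for comparison and are called the other regions. The definition used no RPKM value, but regions, widths and gaps are themselves products of region calling, so level and definition are not independent.

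In ATAC-seq a transposase cuts and tags DNA where chromatin is open, so reads pile up at promoters, enhancers and sites bound by insulator proteins. In the genome of a T cell these sites tend to cluster around genes and their enhancers, while long stretches between them yield few regions. An isolated region is therefore a site of open chromatin with no called neighbour over a long distance on either side. The sequences of the regions are not shown, because no genome of the build of the files was used here, and the files name no genes.

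The cells were live (DAPI-negative) CD4+ TCRβ+ T cells with the brightest 50% of CD25-high signal, and came from spleen and lymph nodes of male NOD mice 8 to 10 weeks old. NOD is a strain that develops autoimmune diabetes. There were 2 libraries from Flicr WT and 2 from Flicr KO mice, each from 50000 cells. Flicr is a long noncoding RNA gene beside Foxp3, whose product defines regulatory T cells. The sources used here do not say how the knockout was made or whether replicates were separate mice. The p-values therefore cover the spread between libraries only, and that spread may be technical. With no gene names in the files, the labelled cell type was not checked against marker genes.

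Levels are in RPKM, reads per kilobase of region and per 1000000 reads of the library. Depth, inferred from the RPKM values, ranged from 19514512 to 41809276 reads per library, of which 24.2% to 35.1% lay in the regions. Flicr WT replicate 1 stood apart, with the lowest share in regions and a median of 1.92 RPKM over all regions, against 2.46 to 2.54 RPKM in the other libraries. It is 1 of the 2 WT libraries in every comparison of KO and WT below.

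The isolated regions were narrow. Their median width was 395 bp, with a range of 313 to 1924 bp, and the other regions had a median of 510 bp. No region of the width range was narrower than 313 bp. Being alone was more frequent among the narrowest regions of the lists: 1231 of 26335 autosomal regions of 251 bp or less (4.67%) had both gaps over 50000 bp. Among 2808 regions of 2000 bp or more there were 13 (0.463%). These narrower and broader regions do not belong to the 812.

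The smaller of the 2 gaps had a median of 76774 bp and the larger one a median of 190844 bp. In 550 isolated regions the smaller gap was at most 100 kb, in 171 it was between 100 and 200 kb, and in 91 it was over 200 kb. Most of the isolated regions did not lie in empty stretches. Within 1000000 bp on either side of an isolated region there were 69 regions in the median (interquartile range 38 to 98), against 110 around the other regions, and 193 of the 812 had 100 or more. Only 4 had none. The isolated regions were next to one another in part, as 177 of the 812 had an isolated region as a direct neighbour. The flanking regions had a median of 2.03 RPKM, and 41.9% of the isolated regions were more accessible than both flanks. For the other regions that share was 42.0%, with a flank median of 2.24 RPKM.

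Every autosome held isolated regions. The count ran from 20 on chromosome 19 to 65 on chromosome 1. As a share of the regions of the width range, it was lowest on chromosome 3 (1.11%, 35 regions) and chromosome 16 (1.12%, 26 regions). It was highest on chromosome 18 (2.29%, 42 regions), chromosome 13 (2.0%, 55 regions) and chromosome 5 (1.99%, 59 regions).

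The most isolated of the 812, chr17:59152481-59152964, was 484 bp wide and lay 1671245 bp from its previous and 3278549 bp from its next neighbour. It was at 2.41 and 3.96 RPKM in the WT libraries and at 5.30 and 4.88 RPKM in the KO libraries, so the groups did not overlap. The log2 fold change was 0.57 (SE 0.32, 95% CI −0.08 to 1.22), which did not pass the test (limma adjusted p = 0.605). Without Flicr WT replicate 1 it was 0.30 (limma adjusted p = 0.918). Next in order of the smaller gap was chr4:66488560-66488943, with 2.14 and 2.18 RPKM in WT and 1.06 and 1.87 RPKM in KO. Here both KO libraries lay below both WT libraries (log2 fold change −0.38, SE 0.41, adjusted p = 0.799 by limma). The third, chr6:104977623-104977979, was at 0.577 and 1.04 RPKM in WT and at 1.88 and 0.576 RPKM in KO, where the groups overlapped. At chr4:80814980-80815325 most of the signal came from 1 library. Flicr WT replicate 2 held 36 reads there (3.22 RPKM), while Flicr WT replicate 1 and Flicr KO replicate 2 held 1 read each and Flicr KO replicate 1 held 4. This region was under the minimum level for the test. These 4 regions had no other region within 1000000 bp.

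In level the isolated regions were close to the others, slightly lower in the middle of the distribution and as high or higher at the top. The median isolated region was at 2.30 and 2.94 RPKM in the WT libraries and at 3.28 and 3.0 RPKM in the KO libraries. The other regions had medians of 2.41 and 3.16 RPKM in WT and 3.38 and 3.31 RPKM in KO. The isolated median was lower in 4 of 4 libraries, by 0.066 ± 0.033 (SD, n = 4 libraries) on the log2(RPKM + 1) scale. This order depended on the gap limit: with gaps over 25000 bp the isolated median was higher, by 0.048, and with gaps over 100000 bp the difference was −0.25. At the 90th percentile the order turned in every library. Isolated regions reached 8.60 and 11.8 RPKM in WT and 12.8 and 12.9 RPKM in KO, and the other regions 8.54 and 10.9 RPKM in WT and 12.6 and 12.1 RPKM in KO. With 0.961% of all regions, the isolated ones held 1.06% to 1.13% of the region reads of a library. All regions include those of 251 bp or less, so this is no comparison within the width range.

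**Figure D1:**
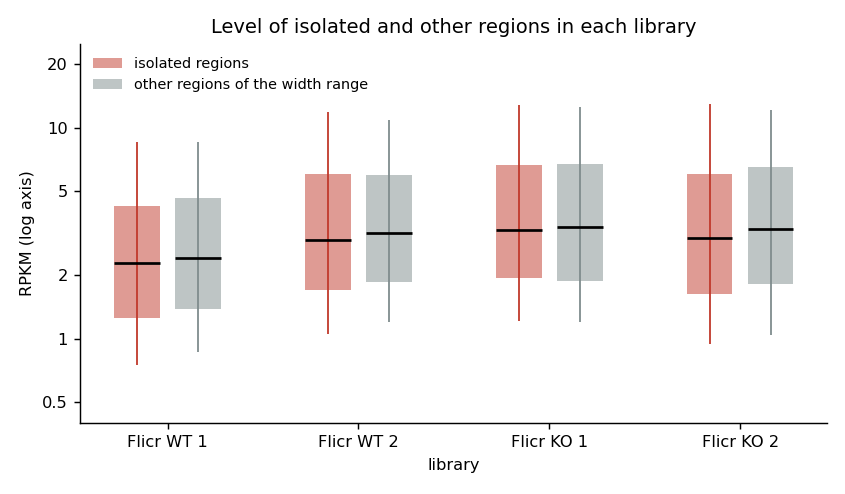
RPKM (log axis) in each library for the 812 isolated and the 52309 other regions; the line in a box is the median, the box spans the 25th to 75th percentile and the thin line the 10th to 90th. The isolated medians lie just below the others in all 4 libraries, and the upper ends of the thin lines lie at or above them.

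Split by width, the small difference at the median became a slightly lower level of narrow isolated regions, with 1 library as an exception, and a higher level of wide ones. The split was chosen after the values had been seen. Among regions of up to 400 bp, 417 isolated ones had a median of 2.19 RPKM and the others 2.25 RPKM, averaged over libraries. The isolated median was the lower one in 3 of the 4 libraries there, and in Flicr KO replicate 1 it was the higher one (2.66 against 2.54 RPKM). From there to 600 bp the medians were 2.75 and 2.90 RPKM, with the isolated one lower in 4 of 4 libraries. From 600 to 1000 bp the order was the opposite, with 4.37 RPKM for 170 isolated and 3.49 RPKM for other regions. The gap was wider above 1000 bp. There the medians of the 88 isolated regions were 5.92 and 7.79 RPKM in WT and 9.14 and 8.33 RPKM in KO, against 4.31 and 5.50 RPKM in WT and 6.10 and 6.0 RPKM in KO for 9745 others. In both wider classes the isolated median was higher in 4 of 4 libraries.

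**Figure D2:**
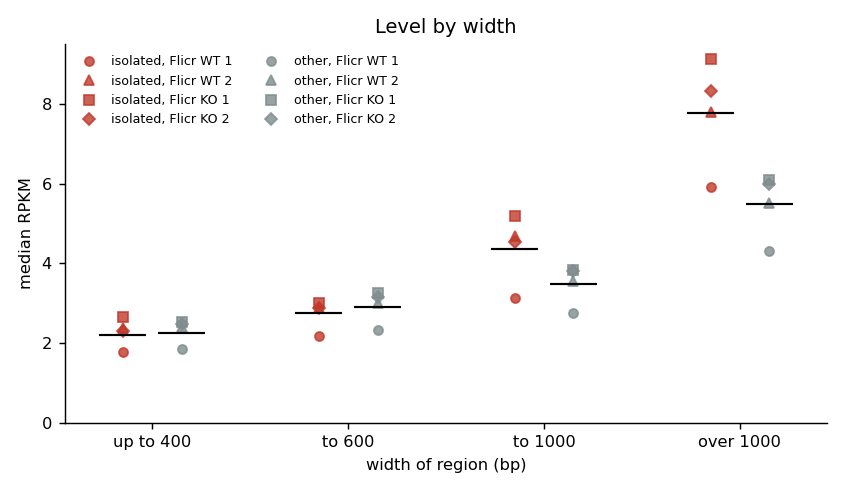
Median RPKM of isolated and other regions by width, 1 point for each library, with a black line at the median of the mean over libraries. Isolated regions lie just below the others up to 600 bp, except in Flicr KO replicate 1 in the narrowest class, and above them beyond it, up to 7.77 against 5.48 RPKM in the widest class.

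The 8 isolated regions with the highest means were among the most accessible of the whole table. Of its 20 most accessible regions 3 were isolated, of its 100 most accessible also 3, and of its 1000 most accessible 23 (2.30%, against 0.961% of all regions). Among its 10000 most accessible, 129 were isolated (1.29%) and 8335 were other regions. The 1000 also held 818 other regions, and isolated regions were 1.53% of the width range. Each of the 8 was more accessible than both of its flanks, which was close to fixed in advance, as they were chosen for their high level.

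First among them, chr13:86185722-86186771 ranked 4 of all regions. It was at 66.9 and 115 RPKM in WT and at 143 and 121 RPKM in KO, and its flanking regions had means of 1.04 and 1.23 RPKM. The gaps to those flanks were 159551 and 582759 bp. The log2 fold change was 0.58 (SE 0.21) and did not pass (limma adjusted p = 0.443).

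On chromosome 9, chr9:19426152-19427062 ranked 10 and lay 1147131 and 762155 bp from its neighbours, with 11 regions within 1000000 bp. It was at 72.1 and 98.7 RPKM in WT and at 126 and 113 RPKM in KO. Also on chromosome 9, chr9:4375578-4377071 ranked 14, at 66.1 and 94.9 RPKM in WT and 118 and 107 RPKM in KO. In all 3 regions the KO values exceeded the WT values, which was also the case in 33.2% of all tested regions. Flicr WT replicate 1 was the lowest library in all 3.

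The next 5 had means from 44.7 to 52.5 RPKM. At chr13:14045899-14047668 the values were 34.9 and 52.3 RPKM in WT and 62.1 and 60.8 RPKM in KO. At chr10:76424448-76425269 they were 46.1 and 49.8 RPKM in WT and 54.1 and 59.0 RPKM in KO, and the log2 fold change was the smallest of the 8 (0.23, SE 0.21). The values at chr10:10868793-10869946 were 39.5 and 50.8 RPKM in WT and 55.9 and 58.2 RPKM in KO. Higher KO values were also measured at chr5:110119711-110120271, with 32.9 and 44.0 RPKM in WT and 56.8 and 58.7 RPKM in KO (difference 0.59 on the log2 scale, SE 0.22, limma adjusted p = 0.433). The last, chr13:18808934-18809535, was at 32.1 and 45.5 RPKM in WT and at 51.2 and 50.1 RPKM in KO. The 2 genotypes did not overlap in any of the 8, and every KO value exceeded every WT value in 33.2% of all tested regions. Flicr WT replicate 1 was the lowest library in each of the 8, and in 55.4% of all isolated regions. The 8 belong to the highest decile of mean RPKM. There 96.8% of isolated and 97.2% of other regions had a log2 fold change above 0, so this direction was general at that level. None of the 8 passed the test with all libraries as deposited. Limma voom on the read numbers called the first (adjusted p = 0.0432). Without Flicr WT replicate 2, which leaves replicate 1 as the lone WT library, the log2 fold changes of the 8 were 0.29 to 0.96. Calls also changed in that fit, and no count is given, as the share of all tested regions called there is not at hand. Without Flicr WT replicate 1 none of the 8 passed (limma adjusted p from 0.127 to 0.815), and their log2 fold changes, 0.23 to 0.59 with all libraries, were 0.15 to 0.39. At the first region the value was then 0.19. None passed without either KO library (limma adjusted p from 0.964 to 0.976). With quantile normalization 3 of the 8 had a log2 fold change below 0, and after centring each library on its median ratio the 8 lay between 0.02 and 0.38.

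**Figure D3:**
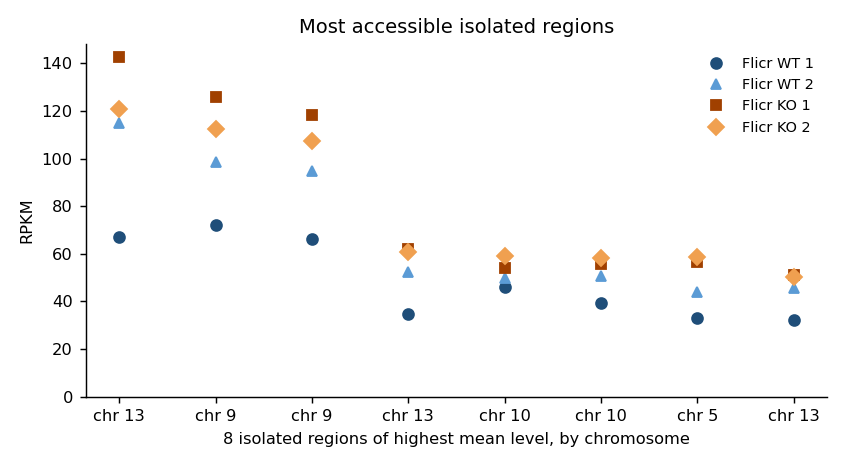
RPKM in each of the 4 libraries for the 8 isolated regions of highest mean level, in descending order and labelled by chromosome. The first 3 lie between 66.1 and 143 RPKM and the other 5 between 32.1 and 62.1 RPKM, with Flicr WT replicate 1 lowest in every one.

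At the other end, 19 of the 812 (2.34%) had a mean RPKM under the 5th percentile of all regions, 1.01, and were not tested, against 2.11% of the other regions. The 4 tested isolated regions of lowest mean were all at 1.02 RPKM, among them the third most isolated region above. At chr10:109101956-109102276 the values were 0.428 and 1.35 RPKM in WT and 1.64 and 0.641 RPKM in KO, on 4 to 22 reads. At chr1:135389518-135390417 they were 0.685 and 1.37 RPKM in WT and 1.09 and 0.912 RPKM in KO. At chr14:23490950-23491285 they were 0.817 and 1.47 RPKM in WT and 0.714 and 1.07 RPKM in KO. In these low regions the genotypes overlapped. Only 1 read, the lowest value of the files, was listed for 7 and 2 isolated regions of the WT libraries and for 0 and 9 of the KO libraries.

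Level changed with distance, and in the bins above 100 kb it was lower than in any bin of shorter gaps. Over all regions of the width range, the median of the mean level was 2.77 RPKM where the smaller gap was at most 2 kb and 3.47 RPKM from 10 to 20 kb. It was 3.34 RPKM from 20 to 50 kb, 3.09 RPKM from 50 to 100 kb, 2.34 RPKM from 100 to 200 kb and 2.43 RPKM above 200 kb. All 4 libraries were lower from 100 to 200 kb than from 50 to 100 kb. Median width fell over the same bins, from 541 bp at the shortest gaps to 380 bp at the longest, and its part in the change of level was not tested apart from the width classes. Within the width classes up to 1000 bp, isolated regions with gaps over 100 kb were lower than those with gaps of 50 to 100 kb: 1.94 against 2.34 RPKM, 2.44 against 2.93 RPKM and 2.78 against 4.80 RPKM. In the widest class the 23 regions with gaps over 100 kb were higher, at 9.46 against 7.01 RPKM.

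Just inside the threshold lay chr19:23131417-23132180, with a smaller gap of 50077 bp, at 1.61 and 2.59 RPKM in WT and 1.63 and 0.537 RPKM in KO. It was followed by neighbours 50083 bp apart. The first of this pair, chr11:26286917-26287732, was at 29.6 and 42.3 RPKM in WT and at 42.8 and 42.9 RPKM in KO. The second, chr11:26337816-26338199, was at 0.893 and 0.644 RPKM in WT and 2.50 and 0.803 RPKM in KO. Just outside lay chr4:137024290-137024680 (smaller gap 49994 bp), with 1.40 and 2.06 RPKM in WT and 0.245 and 0.526 RPKM in KO. The next 2 outside were chr1:89223309-89224630 (49988 bp), with 3.94 and 5.35 RPKM in WT and 5.47 and 5.20 RPKM in KO, and chr11:69893517-69893829 (49971 bp), with 1.97 and 2.18 RPKM in WT and 2.07 and 1.64 RPKM in KO. The 3 regions inside had means from 1.21 to 39.4 RPKM and the 3 outside from 1.06 to 4.99 RPKM. In a wider band, 110 isolated regions with a smaller gap of 50 to 55 kb had a median of 4.24 RPKM, and 150 regions from 45 to 50 kb had 2.93 RPKM. Regions just inside were thus the higher ones in this band, while in the wider bins those from 50 to 100 kb were lower than those from 20 to 50 kb.

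**Figure D4:**
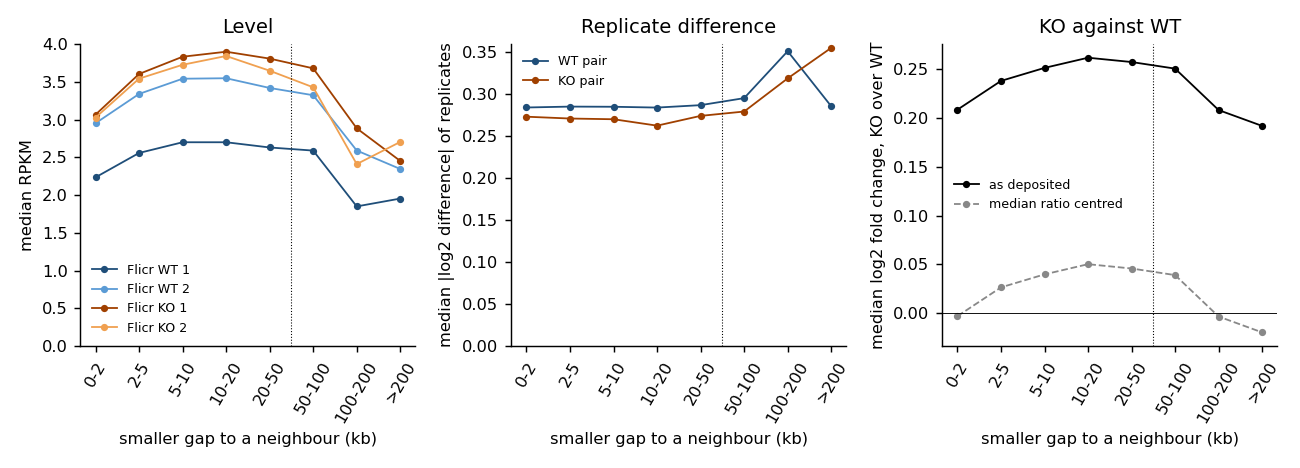
Regions of the width range in 8 bins of the smaller gap to a neighbour, with the 50 kb threshold dotted: median RPKM of each library (left), median absolute log2 difference between the replicates of a genotype after median centring (middle), and median log2 fold change of KO over WT as deposited and after centring on the median ratio (right). Level and fold change are highest from 10 to 20 kb and lower above 100 kb, where the replicate difference of the KO pair is highest.

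Replicates differed slightly more at isolated regions, which were also narrower and held fewer reads. Agreement was measured as the absolute log2 difference of (RPKM + 1) between the 2 libraries of a genotype, with every library first shifted to a common median. The median difference at isolated regions was 0.302 between the WT libraries and 0.303 between the KO libraries. The other regions had medians of 0.284 in WT and 0.271 in KO. A difference above 1 was seen at 5.05% of isolated regions in WT and 7.02% in KO, against 3.91% and 4.60% of the other regions.

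In the narrowest class, up to 400 bp, the isolated regions had a smaller median difference in WT (0.358 against 0.375) and a larger one in KO (0.412 against 0.387). From 400 to 600 bp they had the smaller difference in both genotypes, at 0.295 against 0.304 in WT and 0.271 against 0.303 in KO. In none of the 4 width classes was the isolated value larger in both genotypes. In deciles of mean RPKM the isolated regions had the larger difference in 6 of 10 deciles in WT and in 8 of 10 in KO, and in deciles of mean reads, chosen after the values had been seen, the counts were again 6 and 8. Isolated regions were also based on fewer reads, with medians of 28 and 42 in WT and 58 and 26 in KO, against 38, 56, 76 and 34 at the other regions.

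Across the isolated regions, same-genotype libraries had the higher correlation, but were not closer than every mixed pair. Pearson's correlation of log2(RPKM + 1) over the 812 regions was 0.895 between the WT libraries and 0.897 between the KO libraries, and 0.876 to 0.889 for the 4 mixed pairs. By the median absolute log2 difference, the mixed pair of Flicr WT replicate 2 and Flicr KO replicate 1 was as close (0.303) as the WT pair and the KO pair, and the other mixed pairs were at 0.334 to 0.364. Across the other regions the WT libraries were at 0.885 and the KO libraries at 0.900, with mixed pairs from 0.878 to 0.897. These are descriptions across regions that share libraries and depth, and regions are not independent replicates.

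Single isolated regions differed in how far apart their replicates were. Among isolated regions above the 75th percentile of level, replicates were furthest apart at chr3:75871858-75872235, with 3.99 and 8.92 RPKM in WT and 12.7 and 4.08 RPKM in KO. At chr10:25401122-25401434 they were at 2.96 and 8.50 RPKM in WT and 13.0 and 5.58 RPKM in KO. In both, the spread within a genotype was larger than the difference of the genotype means. At chr10:25401122-25401434 the log2 fold change was 0.65, and 0.016 without Flicr WT replicate 1. At chr14:115190660-115191060 the WT libraries were far apart (2.05 and 6.86 RPKM) and the KO libraries closer (8.13 and 6.41 RPKM), and the reverse held at chr4:74709248-74709563 (5.86 and 5.49 RPKM in WT, 8.20 and 3.42 RPKM in KO). The closest replicates were at chr4:133742960-133743396, with 13.5 and 16.2 RPKM in WT and 18.2 and 17.6 RPKM in KO, and at chr14:28320935-28322052, with 4.84 and 6.19 RPKM in WT and 6.55 and 6.24 RPKM in KO. Centring removes the general difference between Flicr WT replicate 1 and the other libraries, which is why the WT values of the last 2 count as close.

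Between KO and WT, 1 isolated region passed the test, and it was higher in KO. Of the 812 isolated regions 793 were tested, in a fit over 80254 regions (limma on the log2(RPKM + 1) scale, threshold 0.05 after Benjamini-Hochberg adjustment). The 1 higher call compares with a background of 0.0187% of all regions tested, or 15 regions. None of the 793 was called lower, where the background was 0%, and limma voom on the read numbers also called 0 lower. Most regions of every kind had a higher RPKM in KO, and the isolated ones followed: 575 of 793 (72.5%) had a log2 fold change above 0. The median was 0.23 at isolated regions, 0.23 at the other regions and 0.21 over all tested regions. The isolated and other medians differed by 0.0068.

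That median rested on Flicr WT replicate 1. Without it the median of the isolated regions was 0.060, and without Flicr WT replicate 2 it was 0.37. Calls of isolated regions also changed with the library left out. Most were made without Flicr WT replicate 2, which leaves replicate 1 as the lone WT library. The share of all tested regions called in that fit is not at hand, so these calls have no background to be compared with. The libraries were therefore also centred on the median ratio, which sets the median log ratio of each library to the mean of all 4 to 0 and was chosen after the data had been seen. This moved the median of all tested regions from 0.21 to 0.00072 and that of the isolated regions to 0.023, with 52.3% above 0. After it, limma called 0 isolated regions in either direction (44 higher and 17 lower at unadjusted p under 0.05), against a background of 0% in both directions. With the trend and robust options of limma off, 0 isolated regions were called as well.

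At unadjusted p under 0.05, 87 isolated regions were higher in KO (11.0%, background 8.22%) and 4 were lower (0.504%, background 0.842%). After centring on the median ratio the 44 higher regions were 5.55% of the tested isolated ones (background 3.78%) and the 17 lower ones 2.14% (background 2.98%). The other regions had 8.79% higher and 0.459% lower as deposited, and 4.13% higher and 2.17% lower after centring. Every KO value exceeded every WT value in 276 isolated regions (34.8%, background 33.2%) and the reverse held in 50 (6.31%, background 7.81%). Among the other regions of the width range these shares were 36.4% and 6.27%. After centring the counts of isolated regions were 162 (20.4%, background 18.8%) and 133 (16.8%, background 17.9%), against shares of 20.1% and 17.0% of the other regions. The difference between the isolated and other regions was not tested.

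By chromosome, the median log2 fold change of isolated regions was above 0 on all 19 autosomes as deposited. After centring it was above 0 on 11. As deposited it was lowest on chromosome 15 (0.056, 30 regions tested) and chromosome 12 (0.083, 29 regions) and highest on chromosome 17 (0.41, 28 regions). Fold change also went with level: it was 0.12 in the lowest decile of mean RPKM and 0.36 in the highest for isolated regions, and 0.022 and 0.36 for the others. Adding 1 before taking logs shrinks fold changes at low levels, and its part in this trend was not tested. In RPKM, without the added 1, the isolated medians of the lowest decile were 0.872 and 1.17 in WT and 1.34 and 0.946 in KO. Those of the highest decile were 12.6 and 16.7 in WT and 18.8 and 18.6 in KO.

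The called region was chr8:81423845-81424157, 313 bp wide and 78443 and 74577 bp from its neighbours. It was at 1.54 and 2.77 RPKM in WT, on 14 and 28 reads, and at 10.4 and 9.53 RPKM in KO, on 136 and 58 reads. The KO libraries were close to each other and far above both WT libraries. The KO mean was 9.98 ± 0.636 RPKM and the WT mean 2.15 ± 0.872 RPKM (SD, n = 2 each), a difference of 1.83 on the log2 scale (SE 0.31, 95% CI 1.21 to 2.45, limma adjusted p = 0.00691). After centring on the median ratio the log2 fold change was 1.62 and the limma adjusted p was 0.699, so the size was nearly kept and the call was lost. Over 12 settings that kept all libraries, the limma adjusted p ranged from 0.000389 to 0.861, and it was under 0.05 in 6. Without Flicr KO replicate 1 it was 0.417 and without Flicr KO replicate 2 it was 0.565, with log2 fold changes of 1.77 and 1.89. Its neighbours had means of 10.1 and 1.39 RPKM.

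The 5 further isolated regions with the smallest p among those with a higher mean in KO missed the threshold (limma, adjusted p between 0.134 and 0.260). At chr14:59454401-59454713 the values were 0.439 and 0.593 RPKM in WT and 3.68 and 4.60 RPKM in KO, resting on 4 and 6 reads in WT and 48 and 28 in KO (log2 fold change 1.76, SE 0.41). At chr8:111563706-111564022 they were 0.650 and 0.976 RPKM in WT and 6.36 and 2.92 RPKM in KO, with the KO libraries further apart than in the other cases (1.57, SE 0.40). The most remote of the 5 was chr1:46482158-46482533, whose neighbours lay 599712 and 424114 bp away, at 0.456 and 1.65 RPKM in WT and 4.08 and 5.19 RPKM in KO (1.52, SE 0.39).

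On chromosome 9, the values at chr9:85423332-85423933 were 0.911 and 2.67 RPKM in WT and 5.97 and 5.20 RPKM in KO (1.31, SE 0.36). At chr9:59279522-59279834 they were 3.73 and 3.56 RPKM in WT and 10.1 and 6.73 RPKM in KO (1.0, SE 0.30). The KO values exceeded the WT values in all of these regions, and in 33.2% of all tested regions. The 5 were chosen by small p in this direction, so their separation was close to fixed in advance. Centring on the median ratio left their log2 fold changes between 0.79 and 1.55, and without Flicr WT replicate 2 they were 0.97 to 1.95. Calls changed in that fit too, and no count is given, as the share of all tested regions called there is not at hand. None of the 5 passed without Flicr WT replicate 1 (limma adjusted p from 0.101 to 0.447) or without either KO library (0.667 to 0.974). At chr9:85423332-85423933 the log2 fold change without Flicr WT replicate 1 was 0.84.

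Among isolated regions with a lower mean in KO, the 6 with the smallest p had limma adjusted p from 0.295 to 0.592. At chr10:54314974-54315288 the values were 1.74 and 5.70 RPKM in WT and 1.07 and 0.163 RPKM in KO, where Flicr KO replicate 2 held 1 read (log2 fold change −1.47, SE 0.45). The WT libraries were far apart there, and the lower of them was near the higher KO library. At chr5:116389004-116389323 they were 1.93 and 2.32 RPKM in WT and 0.150 and 0.643 RPKM in KO, on 2 and 4 reads in KO (−1.18, SE 0.52). At chr6:92886624-92886971 they were 1.77 and 3.02 RPKM in WT and 1.38 and 0.295 RPKM in KO (−0.93, SE 0.45).

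The log2 fold changes of the other 3 were smaller in size. At chr15:98983950-98984262 the values were 2.63 and 3.16 RPKM in WT and 1.07 and 1.31 RPKM in KO (−0.83, SE 0.40), with close replicates in both genotypes. At chr7:139418431-139418744 they were 1.97 and 3.35 RPKM in WT and 0.917 and 1.31 RPKM in KO (−0.77, SE 0.41). At chr6:101309733-101310045, with gaps of 477115 and 810920 bp, they were 2.85 and 2.77 RPKM in WT and 1.69 and 0.985 RPKM in KO (−0.72, SE 0.40). Both KO libraries lay below both WT libraries in all 6, and in 7.81% of all tested regions. The 6 were chosen by small p, so their separation was close to fixed in advance too. None of the 6 passed in any fit that left out 1 library (limma adjusted p from 0.0981 to 0.974).

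**Figure D5:**
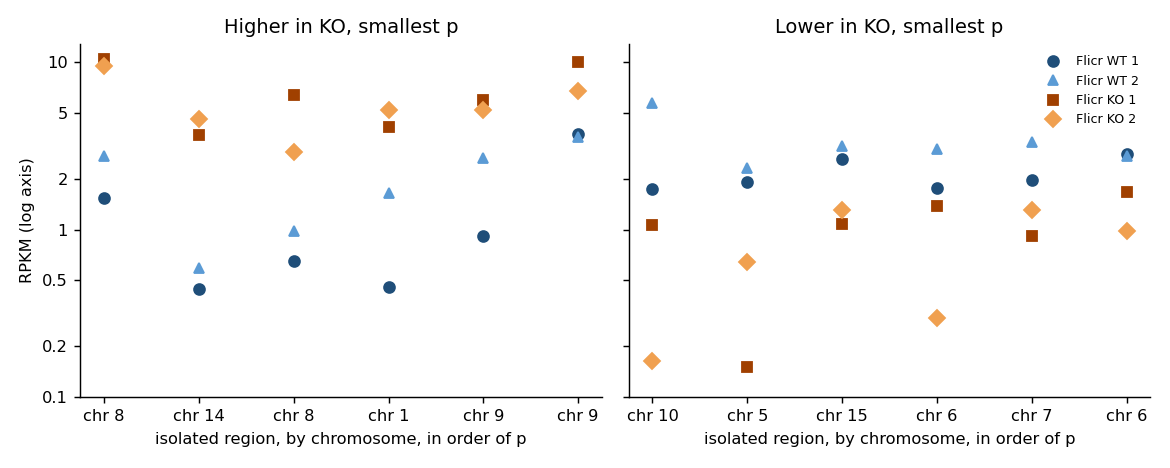
RPKM (log axis) in each library for the 6 isolated regions of smallest p with a higher KO mean (left) and the 6 with a lower one (right), labelled by chromosome in order of p. The KO and WT libraries do not overlap in any of the 12, which were chosen by p. Only the first region on the left, at 1.54 to 2.77 RPKM in WT and 9.53 to 10.4 RPKM in KO, passed the test.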

How the data were processed

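ATAC-seq reads of 2 Flicr KO and 2 Flicr WT libraries had been summarised by the authors over the same regions in every library. Tools listed without roles in the submitters' processing notes are DiffBind, HOMER 4.6, SAMtools, Picard 1.130 and Bowtie2, with the mm9 build. For transposase shift, duplicates, and the calling and merging of regions, methods are not given in the sources used here. Merging within a set distance could shape the gaps. The authors deposited RPKM values, per the file headers. RPKM times region length less 1 bp, divided by its lowest value in each library, gave whole numbers for 100% of values, within 0.001. The lowest value was taken as 1 read, and the read numbers and library depths rest on this. Whether a listed 1 read stands for a floor set in processing is not known. Of the read numbers, 78.8% to 85.5% were even, so reads are not independent molecules.

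Regions were tested with limma 3.58.1 in R 4.3.3 (trend, robust) on log2(RPKM + 1), without 4222 regions of mean RPKM under 1.01. Adjusted p-values are Benjamini-Hochberg over all regions tested. The fit was tested on simulated data. Coordinates are mm9, counted from 1. Python 3.11.15 with pandas 2.3.3, numpy 2.4.6 and matplotlib 3.10.9 made tables and plots. Named are isolated regions with the smallest p in each direction, the highest and lowest tested means, the largest gaps, the gaps next to the threshold, and the largest and smallest replicate differences above the 75th percentile of level. The members and lists were chosen with earlier results of these data known. Alternatives covered scaling, pseudocount, filter, test, each library, replicate block, gap and width.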

Additional observations from a re-analysis of the deposited data

How the results depend on the processing

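The 1 isolated region called higher in KO became 0 with median centring, median ratio centring, quantile normalization, scaling to the region total, no trend or robust option, and gaps over 100000 bp (which leave the region out). Limma voom on reads called 1 isolated region, chr13:86185722-86186771 (adjusted p = 0.0432), in its place. Leaving out a library gave 0 to 109 higher calls, the 109 without Flicr WT replicate 2. In those fits the lone library is assumed to vary like the other genotype. The 109 rest on Flicr WT replicate 1 as the lone WT library. The share of all tested regions called in that fit is not at hand. Whether the 109 exceed the rate over all regions was therefore not tested, and nothing is concluded from them. The median log2 fold change of isolated regions, 0.23, was 0.095 (median centring), 0.023 (median ratio centring), 0.00060 (quantile), −0.020 (region total), −0.015 (voom), and 0.060 to 0.37 without a library. For the other regions, 0.23, it was 0.017 (median ratio centring), −0.0035 (quantile), −0.026 (region total), −0.033 (voom) and 0.081 to 0.36 without a library. These scalings remove a common shift by construction. The level difference, −0.066, was 0.048 with gaps over 25000 bp, −0.25 with gaps over 100000 bp, −0.033 with a pseudocount of 5 and −0.078 to −0.053 without a library. The excess replicate difference, 0.026, was 0.044 with gaps over 100000 bp, 0.0100 with widths under 1000 bp and 0.042 without centring. Leaving out a library leaves 1 replicate pair, so this gave only the values of the WT pair (0.018) and the KO pair (0.033). With the replicate number as a block, the median stayed at 0.23 by construction and 1 isolated region was called (adjusted p = 0.000389). Whether the numbers pair the samples is not known. Deviations of same-numbered libraries correlated at 0.0031 over all tested regions. With 2 libraries per genotype and few reads per region, this correlation cannot decide it. Of 563 recomputed fold changes of 38 named regions, 505 had the sign and call of the reported one, the call was lost in 8 and won in 16, and 34 uncalled ones turned in sign. The cause was not tested where none is given. Median reads of 26 to 58 per isolated region limit the precision.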
